A study of Mus musculus with 6 samples.

Results

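NRF2, encoded by Nfe2l2, is the transcription factor that drives the antioxidant response, and 10 genes of this response were followed by their symbols and Ensembl identifiers. They were Nfe2l2, its inhibitor Keap1, and the target genes Nqo1, Hmox1, Gclc, Gclm, Txnrd1, Srxn1, Slc7a11 and Gsr. All 10 were found among the 49671 genes of the count files, and all 10 passed the filter on low counts that left 15355 genes for testing. RNA came from mouse induced renal epithelial cells, fibroblasts reprogrammed into tubule-like cells. They were derived from the strain B6.129S4-Pkd1tm2Ggg/J, which carries a floxed Pkd1. Mutations of this gene are the usual cause of the dominant form of polycystic kidney disease. Cultures transduced with Cre (genotype given as Pkd1 -/-) were set against cultures transduced with Flp (Pkd1 fl/fl, given as wild type) for each of clones 4, 7 and 21, so that each group had 3 libraries. All 6 cultures were grown to confluency in the same serum-containing medium, and no oxidant or NRF2 activator is named in the labels. Each library is 1 culture of 1 clone. A separate animal for each clone is not stated in the labels, and the p-values therefore cover only the variation among these 3 pairs, which may be technical.

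In unstressed cells KEAP1, an adaptor of the CUL3 ubiquitin ligase, binds NRF2 and keeps it at a low level by having it degraded. Oxidants and electrophiles modify cysteines of KEAP1, NRF2 then accumulates, pairs with a small MAF protein and binds antioxidant response elements near its target genes. The targets make and recycle glutathione and thioredoxin, reduce quinones and break down haem. In kidney tubules the pathway is known for protecting cells against oxidative and toxic injury. Because NRF2 is controlled largely at the protein level, its mRNA and its activity need not move together, and protein was not measured.

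Total gene counts ran from 25196120 to 46918341 per library, and the least counted of the 10 genes in any library still had 225 reads. Cre had the higher total in clones 4 and 21, and Flp in clone 7. Levels are in CPM, counts scaled to a common library size and adjusted by TMM, which corrects for differences in library composition. The targeted gene Pkd1 was at 145, 105 and 118 CPM in Cre clones 4, 7 and 21 and at 199, 229 and 166 CPM in Flp clones 4, 7 and 21. Its fitted log2 fold change was -0.69 (SE 0.16), with an adjusted p of 0.607 by edgeR's quasi-likelihood test with the clone as a block, and it passed by DESeq2 with the same block (adjusted p = 0.0275). The 7 renal epithelial markers were all present, with a summed level of 2657 to 3951 CPM in Cre and 2812 to 3872 CPM in Flp. Among them Pax2 was the least at 20.9 to 41.4 CPM over all libraries, and Pax8, at 239.9 to 285.6 CPM, is also one of the factors used for reprogramming, so its reads may include the introduced copy. The 7 fibroblast markers summed to 8.88 to 14.0 CPM in the Cre libraries and to 4.62 to 29.9 CPM in the Flp libraries, with Thy1 at 0 in all libraries. The 4 endothelial markers summed to at most 0.0686 CPM in Cre and 0.0994 CPM in Flp, with Cdh5 and Kdr at 0. The 4 haematopoietic markers summed to 4.42 to 6.67 CPM in Cre and 6.19 to 6.70 CPM in Flp, nearly all of it Cd68, with Adgre1 at 0.

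Promoter windows from RefSeq (build GRCm38.p6), 250 bases before to 50 after an annotated start, were listed for 7 of the 10 genes in 9 windows. Windows for Hmox1, Gclc and Gsr were not used here. The letters of the antioxidant response element, TGACNNNGC, searched on both strands, were present for 4 of the 7 genes. They stood in 4 of the 9 windows, and 12.4% of all 32851 windows held them. The stretches around these letters are shown because NRF2 is known to act through this element. They are matches of letters only, and binding of NRF2 to them was not tested. Matching letters are in capitals and each stretch is read along the gene's own strand.
Nfe2l2, chr2:75704885-75704913, minus strand: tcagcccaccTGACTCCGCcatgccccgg
Gclm, chr3:122245373-122245481, plus strand: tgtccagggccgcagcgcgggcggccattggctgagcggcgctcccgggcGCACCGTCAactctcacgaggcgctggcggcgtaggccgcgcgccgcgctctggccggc
Txnrd1, second of 3 windows, chr10:82859064-82859172, plus strand: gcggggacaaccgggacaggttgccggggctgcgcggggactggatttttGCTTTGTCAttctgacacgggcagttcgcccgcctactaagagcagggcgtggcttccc
Srxn1, chr2:152105542-152105570, plus strand: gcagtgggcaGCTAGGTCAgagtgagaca

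The match of Nfe2l2 lies on the gene's strand and those of Gclm, Txnrd1 and Srxn1 on the opposite strand. The matches of Nfe2l2 and Srxn1 fall inside annotated exons, so only short stretches are given there. Because the match of Nfe2l2, at position -240, lies outside the span of Nfe2l2 itself, that exon is one of another annotated gene. Keap1, Nqo1 and Slc7a11 had no such letters in their windows, which says nothing of sites farther away. The window of Slc7a11 held another element, TGATGNAA, the core letters bound by ATF4 with a C/EBP partner in the amino acid response. It was found on both strands, starting at positions -66 and -47 from the gene's start with 11 bases between the matches, and 3.97% of all windows held at least one match. Slc7a11 was the only one of the 7 genes with it. The stretch is shown because the level of Slc7a11 differed most between clones, as described below.
Slc7a11, chr3:50443615-50443729, minus strand: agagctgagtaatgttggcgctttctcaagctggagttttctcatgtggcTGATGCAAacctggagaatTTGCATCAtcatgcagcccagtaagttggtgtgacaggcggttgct

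The comparison of Cre with Flp asked whether the Cre genotype, given as Pkd1 -/-, went with a change in the antioxidant response when each clone was its own control. It gave no call for any of the 10 genes. By edgeR's quasi-likelihood test with the clone block, 0 of 10 passed an adjusted p of 0.05, and 0 of 15355 genes overall (0%). DESeq2 with the clone block called 0 of the 10, against 1.28% of all genes, as did DESeq2 without the block, against 0.0912%. With library depth as a covariate, edgeR also called 0 of the 10, against 0.176%, in a fit that leaves 1 residual degree of freedom. At an unadjusted p under 0.05, 0 of the 10 were counted by each of 3 tools, where edgeR counted 6.82%, DESeq2 7.37% and limma-voom 7.27% of all genes. The adjusted p of the 10 genes by edgeR ran from 0.786 to 0.990. The ranges of the Cre and Flp libraries overlapped for all 10, whereas they did not overlap for 8.13% of all genes. The fitted log2 fold change was above 0 for 8 and below 0 for 2, with a median of 0.16, against 0.00 over all genes. Without clone 7 that median was 0.04, with 6 of the 10 above 0. The median size of the change, whatever its sign, was 0.165 for the 10 genes and 0.156 for all genes.

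**Figure D1:**
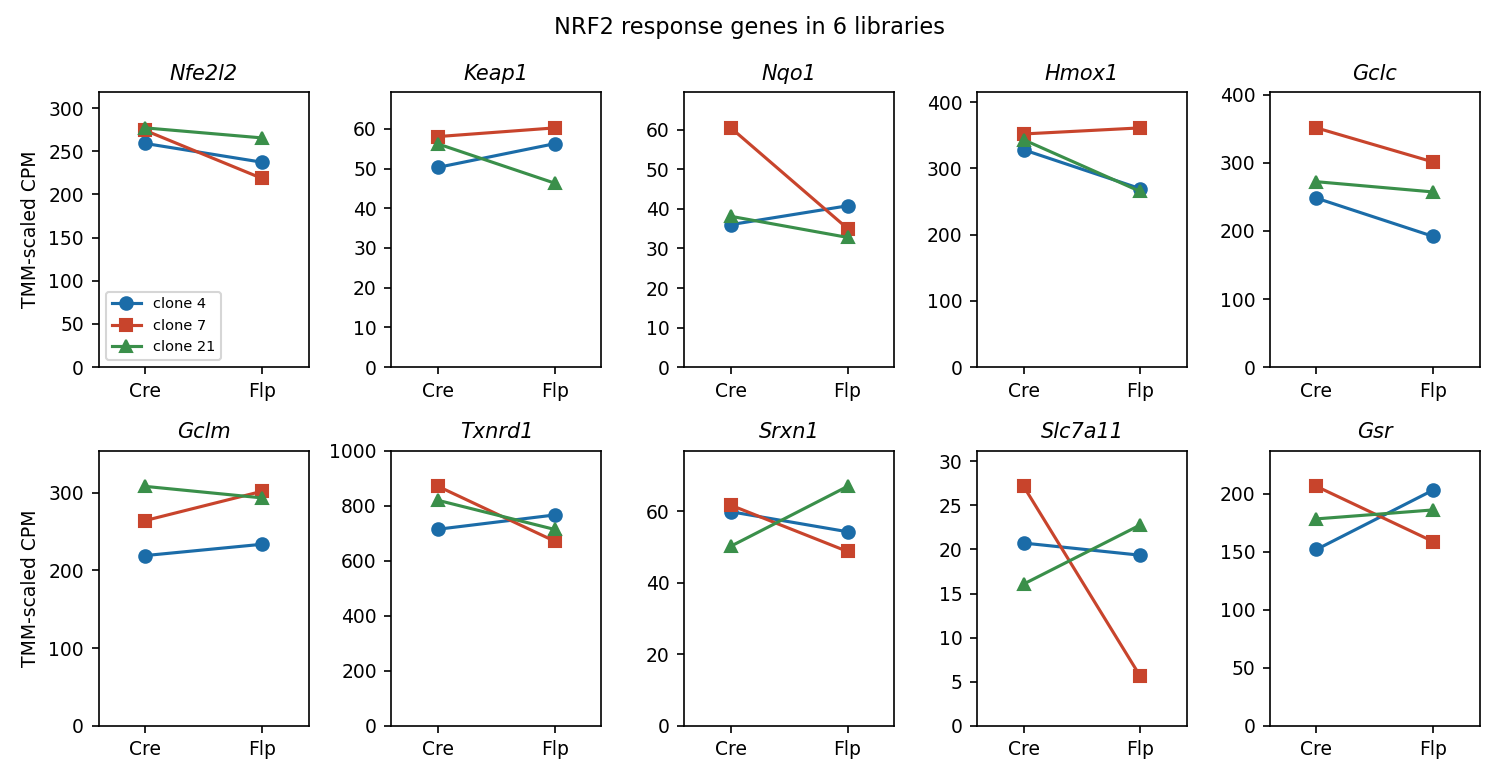
Level of each of the 10 NRF2 response genes (TMM-scaled CPM, vertical axes from 0) in Cre (left) and Flp (right) cultures, with 1 point per library and a line joining the 2 cultures of a clone. The Cre and Flp points overlap for all 10 genes, and the steepest line is that of Slc7a11 in clone 7, with 27.2 CPM in the Cre and 5.59 CPM in the Flp culture.

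The factor itself and its inhibitor were expressed at steady levels, about as steady as Txnrd1, Gsr, Hmox1 and Srxn1 among the targets. Nfe2l2 (ENSMUSG00000015839, chromosome 2, 75675513 to 75704641, GRCm38) was at 259, 274 and 277 CPM in Cre clones 4, 7 and 21 and at 237, 219 and 265 CPM in Flp clones 4, 7 and 21. The Cre library was the higher in each clone, but Flp clone 21 stood above Cre clone 4, so the groups overlapped. The fitted log2 fold change of Nfe2l2 was 0.17 (SE 0.11, 95% interval -0.09 to 0.44), with an edgeR adjusted p of 0.868. Keap1 (ENSMUSG00000003308, chromosome 9, 21229730 to 21239361) was at 50.3, 58.1 and 56.2 CPM in Cre clones 4, 7 and 21 and at 56.3, 60.2 and 46.3 CPM in Flp clones 4, 7 and 21. Its lowest and its highest library were both Flp. The fitted log2 fold change of Keap1 was 0.02 (SE 0.13, 95% interval -0.31 to 0.35; edgeR adjusted p = 0.990). Exons of Keap1 overlap those of Gm16754, on the opposite strand, over 10.9% of their length. Whether reads there were assigned by strand is not given in the sources used here.

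Glutathione is made from cysteine, glutamate and glycine. GCLC is the catalytic subunit and GCLM the modifier subunit of glutamate-cysteine ligase, the rate-limiting enzyme of its synthesis, and GSR returns oxidised glutathione to its reduced form. Gclc (ENSMUSG00000032350, chromosome 9, 77754535 to 77794485) was at 248, 351 and 272 CPM in Cre clones 4, 7 and 21 and at 192, 301 and 257 CPM in Flp clones 4, 7 and 21. As for Nfe2l2, the Cre library was the higher in each clone, and the difference between clones was larger than that between Cre and Flp. Its log2 ratios were 0.37, 0.22 and 0.08 in clones 4, 7 and 21, and the fitted log2 fold change was 0.22 (SE 0.11, 95% interval -0.04 to 0.49; edgeR adjusted p = 0.786, the lowest of the 10). Nfe2l2 and Gclc were the 2 of 10 genes with a higher level in Cre in all 3 clones, where 14.6% of all genes had that pattern, and 0 of the 10 were lower in all 3, against 13.1% of all genes. In either direction, 27.7% of all genes kept 1 sign over the clones.

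Gclm (ENSMUSG00000028124, chromosome 3, 122245557 to 122270732) was at 219, 264 and 308 CPM in Cre clones 4, 7 and 21 and at 234, 302 and 294 CPM in Flp clones 4, 7 and 21. Its partner Gclc lay above 0 in the fit and Gclm below it, with a log2 fold change of -0.07 (SE 0.11, 95% interval -0.33 to 0.19; edgeR adjusted p = 0.958). Exons of Gclm overlap 2 other annotated genes, Gm17494 and Gm6061, over 4.71% and 3.88% of their length. Gsr (ENSMUSG00000031584, chromosome 8, 33652523 to 33698163) was at 152, 206 and 178 CPM in Cre clones 4, 7 and 21 and at 203, 159 and 186 CPM in Flp clones 4, 7 and 21. Cre was the lower in clones 4 and 21 and the higher in clone 7. The log2 ratios of Gsr were -0.42, 0.38 and -0.06 in clones 4, 7 and 21, and the fitted value was -0.03 (SE 0.17; edgeR adjusted p = 0.990).

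Slc7a11, the cystine carrier xCT that brings in the cysteine for glutathione, differed most between clones. Slc7a11 (ENSMUSG00000027737, chromosome 3, 49892526 to 50443614) was at 20.7, 27.2 and 16.1 CPM in Cre clones 4, 7 and 21 and at 19.3, 5.59 and 22.8 CPM in Flp clones 4, 7 and 21. A single library, Flp clone 7, stood apart: its level was 28.9% of that in Flp clone 4 and 24.5% of that in Flp clone 21, and it rested on 225 reads. The log2 ratios were 0.10, 2.27 and -0.50 in clones 4, 7 and 21. The fitted log2 fold change of Slc7a11 was 0.58 (SE 0.55), and its 95% interval, -0.77 to 1.93, was the widest of the 10 (edgeR adjusted p = 0.925). Without clone 7 the fitted value of Slc7a11 was -0.20, so its sign rested on that clone. In clone 7 the median log2 ratio was -0.05 for the 22 genes of at least 5 CPM within 5 Mb of Slc7a11, so its neighbourhood did not share the difference.

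**Figure D2:**
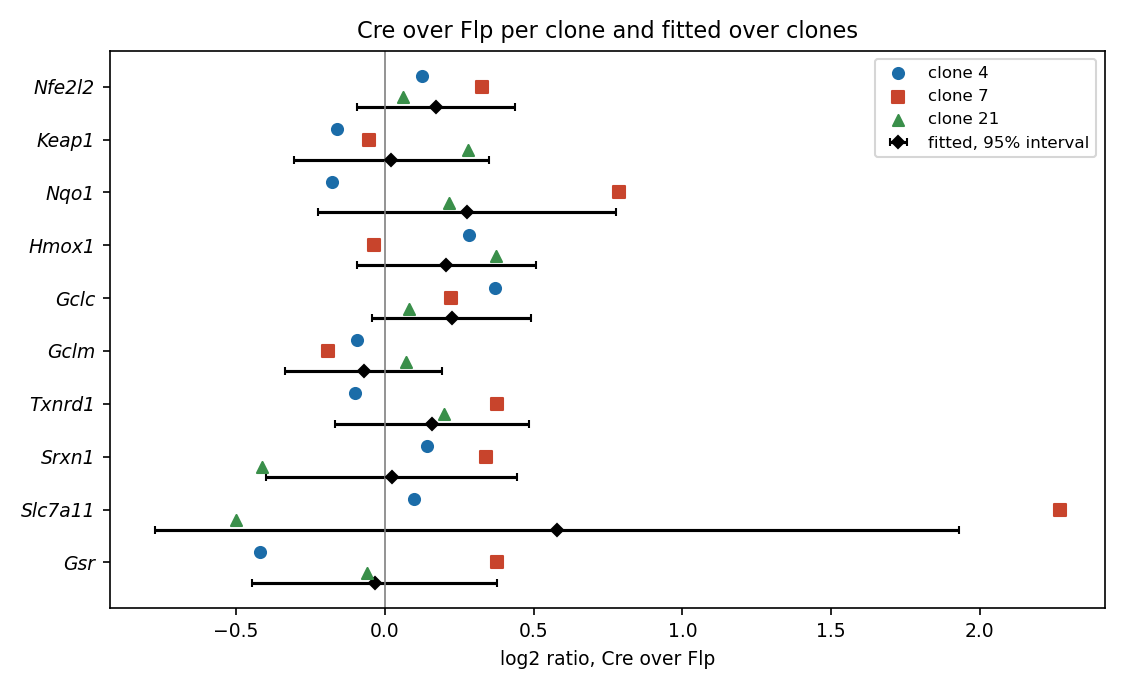
Log2 ratio of Cre over Flp for each of the 10 genes in clones 4 (circles), 7 (squares) and 21 (triangles), with the value fitted over clones and its 95% interval (diamonds and bars). All 10 intervals include 0, and Slc7a11 in clone 7 lies farthest out at 2.27.

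Slc7a11 is also a target of ATF4, the factor of the amino acid response, whose core letters stand on both strands of the promoter stretch printed above. The 11 genes of an ATF4 list were 10 higher and 1 lower in Cre of clone 7, with a median log2 ratio of 0.67, where 50.6% of all genes were higher. Other lists also lay above 0 in that clone, with 18 of 27 glutathione genes higher (median 0.34), 5 of 6 NADPH supply genes (median 0.39) and 4 of 4 genes of superoxide dismutases and catalase (median 0.29), so the shift was not limited to the ATF4 list. The NADPH list includes Tkt and the glutathione list Abcc4, both on chromosome 14. Their neighbours had median log2 ratios of 0.60 and 0.63 in clone 7. In clone 4 the ATF4 list had 4 higher and 7 lower and a median of -0.15. Among those higher, the amino acid carrier Slc7a1, lies on chromosome 5 among 53 neighbours whose median log2 ratio in clone 4 was 0.93, next to 0.87 for Slc7a1. In clone 21 the list had 5 higher and 6 lower and a median of -0.03. Trib3, a pseudokinase induced by ATF4, was at 33.0, 60.4 and 35.3 CPM in Cre clones 4, 7 and 21 and at 42.3, 19.0 and 47.0 CPM in Flp clones 4, 7 and 21. In clone 21 the neighbours of Trib3 on chromosome 2 had a median log2 ratio of -0.55, next to -0.41 for Trib3. Chac1, which degrades glutathione, was at 46.2, 76.6 and 42.8 CPM in Cre clones 4, 7 and 21 and at 58.2, 26.3 and 42.7 CPM in Flp clones 4, 7 and 21. Atf4 itself was at 377, 545 and 423 CPM in Cre clones 4, 7 and 21 and at 385, 277 and 409 CPM in Flp clones 4, 7 and 21.

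For these 3 genes, as for Slc7a11, Cre clone 7 was the highest and Flp clone 7 the lowest library. Other genes of the list went otherwise. Ddit3 was lower in Cre of clone 7 and highest in Flp clone 7, at log2 values above its median of 0.08 and 0.25. Ddit4 and Slc7a5 were highest in Flp clone 4, and Psat1 in Flp clone 21. Over the list, Cre clone 7 was the highest library for 7 of 11 genes, against 18.9% of all genes, and Flp clone 7 the lowest for 5 of 11, against 14.8%. Asns and Psat1 were the other ATF4 list genes lowest in Flp clone 7. Clone 7 is 1 pair of cultures, so this difference has no replicate, and whether ATF4 had a part in the level of Slc7a11 was not tested. Over all clones 0 of the 11 passed edgeR's test, with fitted values of 0.39 for Chac1, 0.33 for Atf4 and 0.27 for Trib3. Trib3, Chac1, Atf4, Asns, Psat1, Ddit3, Ddit4 and Slc7a5 were picked out after their values were seen. Atf3, the list's gene with the smallest p, stood at a log2 fold change of 0.32 (SE 0.15; edgeR adjusted p = 0.786).

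**Figure D3:**
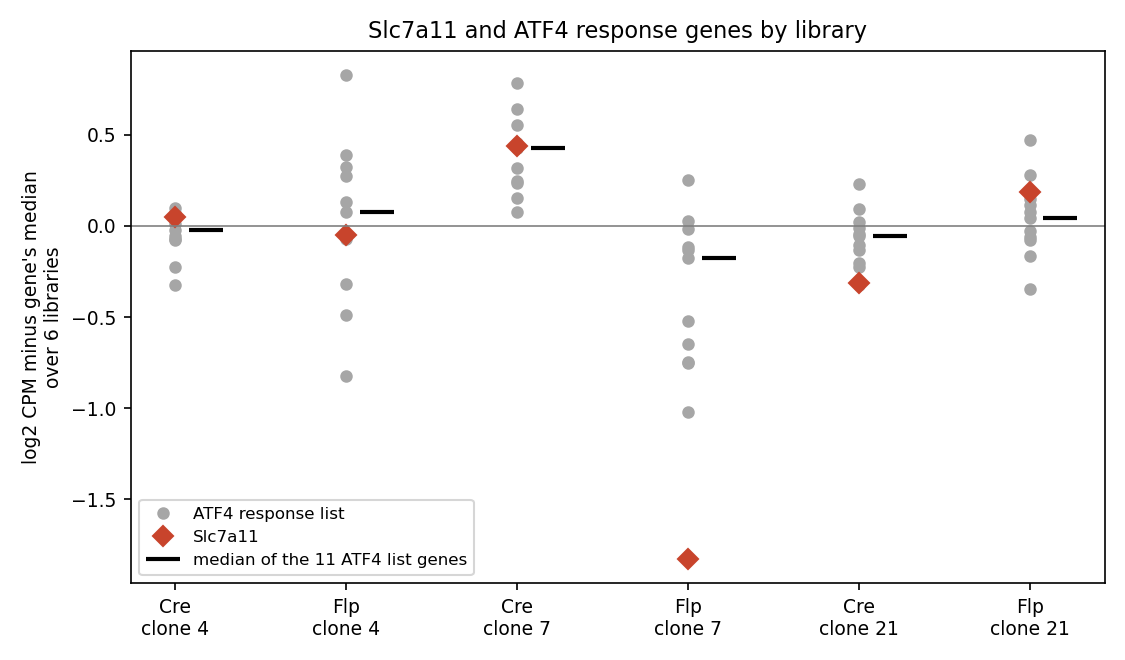
Log2 CPM minus each gene's median over the 6 libraries, for Slc7a11 (diamonds) and the 11 genes of the ATF4 list (grey points, with their median as a bar), in Cre and Flp cultures of each clone. In clone 7, Slc7a11 lies at 0.44 in the Cre library and at -1.83 in the Flp library, and the median of the list at 0.43 in the Cre library and at -0.18 in the Flp library.

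The thioredoxin arm had 2 members, TXNRD1, the cytosolic thioredoxin reductase, and SRXN1, which repairs over-oxidised peroxiredoxins. Txnrd1 (ENSMUSG00000020250, chromosome 10, 82833951 to 82897712) was at 715, 871 and 819.9 CPM in Cre clones 4, 7 and 21 and at 767, 671 and 714 CPM in Flp clones 4, 7 and 21. Cre was the higher in clones 7 and 21 and the lower in clone 4, and the fitted log2 fold change was 0.16 (SE 0.13, 95% interval -0.17 to 0.48; edgeR adjusted p = 0.909). Srxn1 (ENSMUSG00000032802, chromosome 2, 152105516 to 152111376) was at 59.8, 61.7 and 50.2 CPM in Cre clones 4, 7 and 21 and at 54.2, 48.7 and 66.9 CPM in Flp clones 4, 7 and 21. Its log2 ratios were 0.14, 0.34 and -0.41 in clones 4, 7 and 21, and the fitted value was 0.02 (SE 0.17; edgeR adjusted p = 0.990).

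The ratio of Srxn1 in clone 21 was matched by that of its neighbours. Of 85 such genes within 5 Mb of Srxn1, 3 were higher and 82 lower in Cre of clone 21, with a median log2 ratio of -0.54, next to -0.41 for Srxn1. Set against each gene's median over the 6 libraries, these neighbours stood at -0.06 in Cre clone 21 and 0.45 in Flp clone 21, so the departure was on the Flp side. In clones 4 and 7 the neighbours had medians of -0.08 and 0.00. For the other 9 genes the neighbours' medians lay between -0.16 and 0.08 in all clones.

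**Figure D4:**
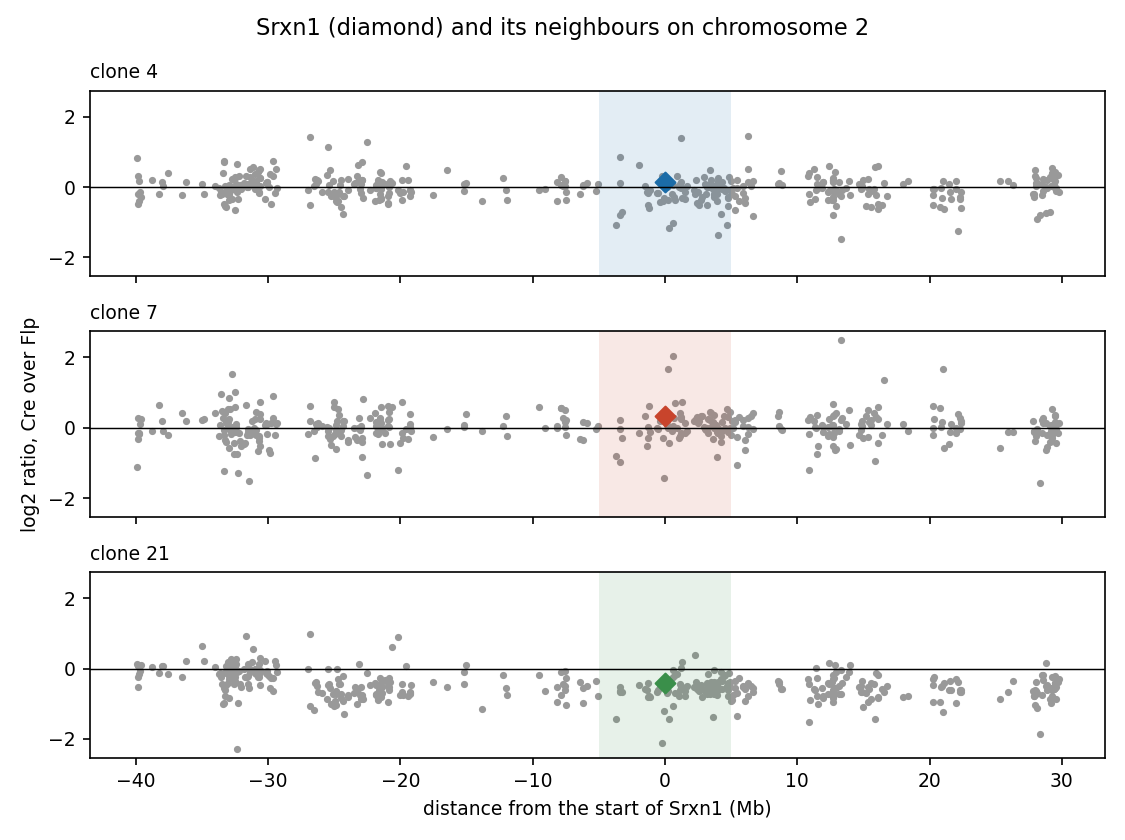
Log2 ratio of Cre over Flp for Srxn1 (diamond) and the expressed genes within 40 Mb of it on chromosome 2 (grey points), by distance from its start in Mb, in clones 4, 7 and 21 from top to bottom; the shaded band is the 5 Mb on either side. In clone 21 the points in the band have a median of -0.54, and in clones 4 and 7 of -0.08 and 0.00. One gene beyond a log2 ratio of 3 in clone 7 is not drawn.

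Nqo1 and Hmox1 are targets often used to read NRF2 activity. NQO1 reduces quinones, and HMOX1, haem oxygenase, breaks down haem to biliverdin, iron and carbon monoxide. Nqo1 (ENSMUSG00000003849, chromosome 8, 107388225 to 107403206) was at 36.0, 60.5 and 38.1 CPM in Cre clones 4, 7 and 21 and at 40.8, 35.0 and 32.8 CPM in Flp clones 4, 7 and 21. Cre clone 7 stood above the other 5 libraries, which lay between 32.8 and 40.8 CPM. The log2 ratios of Nqo1 were -0.18, 0.79 and 0.22 in clones 4, 7 and 21, and the fitted value was 0.28 (SE 0.20, 95% interval -0.22 to 0.78; edgeR adjusted p = 0.889). Without clone 7 the fitted value of Nqo1 was 0.02.

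Hmox1 (ENSMUSG00000005413, chromosome 8, 75093621 to 75100589) was at 328, 352 and 343 CPM in Cre clones 4, 7 and 21 and at 269, 361 and 265 CPM in Flp clones 4, 7 and 21. Here the 3 Cre libraries lay close together, and Flp clone 7 was the highest of all. The log2 ratios of Hmox1 were 0.28, -0.04 and 0.37 in clones 4, 7 and 21, so the clone with the largest ratio for Nqo1 had the smallest for Hmox1. The fitted log2 fold change of Hmox1 was 0.21 (SE 0.12, 95% interval -0.10 to 0.51; edgeR adjusted p = 0.852).

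Counted clone by clone, the 10 genes had 5 higher and 5 lower in Cre of clone 4, 7 higher and 3 lower in clone 7, and 7 higher and 3 lower in clone 21. The median log2 ratio of the 10 was 0.00, 0.33 and 0.08 for clones 4, 7 and 21, beside medians over all genes of 0.00, 0.01 and 0.00. A ratio of at least 0.5 in either direction was reached by 0 of the 10 genes in clone 4, where 24.6% of all genes reached it. In clone 7 Nqo1 and Slc7a11 reached it, against 28.5% of all genes, and in clone 21 Slc7a11 did, against 26.4%. Cre clone 7 was the highest of the 6 libraries for 5 of the 10 genes, which were Nqo1, Gclc, Txnrd1, Slc7a11 and Gsr. The same library was the highest for 18.9% of all genes, and for 11 of 27 genes of the glutathione list and 7 of 11 of the ATF4 list.

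Levels between genes were compared per kilobase of merged exon length (CPM per kb). Hmox1 was the highest, with a median of 192 CPM per kb over the 6 libraries (range 151 to 206), followed by Txnrd1 at 105 (94.7 to 123). Gclc, Nfe2l2 and Gsr came next with medians of 70.3, 69.1 and 66.2 CPM per kb, and their ranges overlapped, so that their order was not separated from the spread between libraries. Gclm stood at 44.4 CPM per kb, Nqo1 at 23.9 and Srxn1 at 20.2, with the ranges of Gclm and Nqo1, and of Nqo1 and Srxn1, overlapping. Keap1 was at 11.98 CPM per kb (9.87 to 12.8), and Slc7a11 the lowest at 1.44 (0.402 to 1.95). The highest library was 1.27 times the lowest for Nfe2l2, 1.36 times for Hmox1, 1.84 times for Nqo1 and 4.86 times for Slc7a11. The merged exons of Slc7a11 span 13922 bases, so its level per kb depends on which transcripts the cells use.

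**Figure D5:**
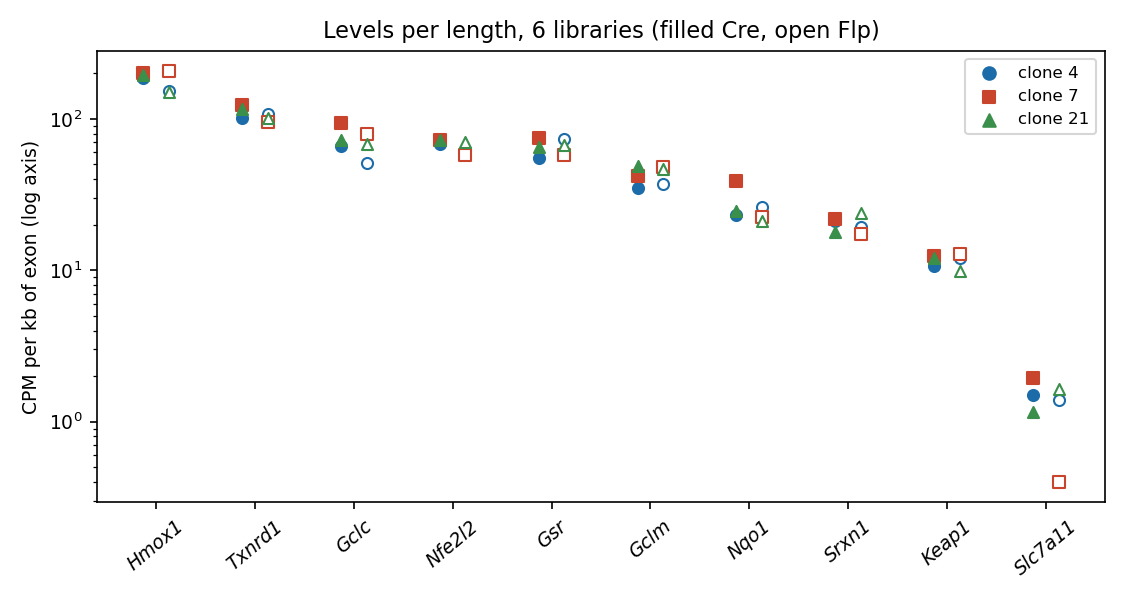
Level of the 10 genes in CPM per kb of merged exon (log axis) in each library, with filled symbols for Cre (left of each pair) and open symbols for Flp (right), and a symbol shape per clone. Genes are ordered by their median, with Hmox1 at 192 and Slc7a11 at 1.44 CPM per kb, and the open square far below the others is Slc7a11 in Flp clone 7.

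The wider pathway was read from 8 further lists with 92 genes, of which 89 were tested. None of the 89 passed edgeR's test with the clone block, and 12.4% of them had an unadjusted p under 0.05 by edgeR, 5 higher and 6 lower in Cre, where 6.82% of all genes did. The lists were chosen with earlier results of these data known, so this share adds no separate evidence. The 10 partners and regulators of NRF2, among them the ligase scaffold Cul3, the small MAF proteins, the competing repressor Bach1 and the KEAP1-binding protein Sqstm1, had a median log2 fold change of 0.04 with values from -0.19 to 0.21. At an unadjusted p under 0.05, 0 of these 10 were counted. Gsk3b, a kinase that marks NRF2 for degradation, had the smallest p of that list, at 0.21 (SE 0.12; edgeR adjusted p = 0.848).

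The glutathione list held the larger differences. Of its 27 tested genes, 14 were above and 13 below 0, with a median of 0.02. By edgeR 4 higher and 2 lower had an unadjusted p under 0.05, and DESeq2 with the clone block called 4 of 27, or 14.8%, against 1.28% of all genes. These 4 were the glutathione transferases Gsta3 and Gsta4, the glutathione peroxidase Gpx3, which is secreted by proximal tubule cells, and the exporter Abcc4. The rest of the list stayed without a call, and the list's genes went both ways. As the list was chosen with earlier results of these data known, its share of calls adds no separate evidence.

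Gsta4, whose enzyme clears lipid aldehydes, was at 5.58, 21.6 and 8.9955 CPM in Cre clones 4, 7 and 21 and at 4.08, 5.47 and 1.501 CPM in Flp clones 4, 7 and 21. The 3 Cre libraries lay above the 3 Flp libraries, by a narrow gap between Cre clone 4 and Flp clone 7. The fitted log2 fold change of Gsta4 was 1.67 (SE 0.45; edgeR adjusted p = 0.625, DESeq2 adjusted p = 0.0129). Gsta3 was at 4.76, 24.7 and 18.2 CPM in Cre clones 4, 7 and 21 and at 2.62, 7.63 and 7.21 CPM in Flp clones 4, 7 and 21, with log2 ratios of 0.84, 1.69 and 1.33 and a fitted value of 1.31 (SE 0.24; edgeR adjusted p = 0.607, DESeq2 adjusted p = 0.000629). Its Cre clone 4 library lay within the Flp range. Reads of similar Gsta copies may have been divided among them by the counting, and Gsta1 was too low to test.

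Gpx3 was at 482, 267 and 354 CPM in Cre clones 4, 7 and 21 and at 655, 563 and 542 CPM in Flp clones 4, 7 and 21. The Cre libraries all lay below the Flp libraries, and the fitted log2 fold change was -0.71 (SE 0.15; edgeR adjusted p = 0.607, DESeq2 adjusted p = 0.00884). Abcc4 was at 47.1, 93.6 and 58.1 CPM in Cre clones 4, 7 and 21 and at 13.9, 40.3 and 48.9 CPM in Flp clones 4, 7 and 21, with a fitted value of 1.07 (SE 0.29; edgeR adjusted p = 0.631, DESeq2 adjusted p = 0.0196). Abcc4 lies on chromosome 14 among 20 expressed neighbours within 5 Mb whose median log2 ratios were -0.13, 0.63 and 0.64 in clones 4, 7 and 21. Its own ratios were 1.76, 1.21 and 0.25. Of the 20 neighbours, 8 were higher and 12 lower in Cre of clone 4, while 19 were higher in clone 7 and 20 in clone 21. Whether Abcc4 shared a shift of its region was not tested.

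Abcc2, an exporter of glutathione conjugates, stood at 0.82 (SE 0.23; edgeR adjusted p = 0.631), and Gstt1, another glutathione transferase, at -0.68 (SE 0.24; edgeR adjusted p = 0.686). Each had 1 direction in all 3 clones. Abcc2 passed edgeR's test when no genes were filtered out for low counts (adjusted p = 0.0374), as did the 4 genes above. These 5 made 17.2% of the list's 29 genes, against 0.792% of all genes in that fit, a share that likewise adds no separate evidence.

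The thioredoxin and peroxiredoxin list had 7 of 14 genes above and 7 below 0 and a median of 0.00. Prdx4, the peroxiredoxin of the endoplasmic reticulum, was at 48.9, 41.4 and 35.3 CPM in Cre clones 4, 7 and 21 and at 57.3, 55.8 and 62.7 CPM in Flp clones 4, 7 and 21, with no overlap and a fitted value of -0.50 (SE 0.15; edgeR adjusted p = 0.645). Prdx5, another peroxiredoxin, stood at -0.41 (SE 0.14; edgeR adjusted p = 0.679), and its exons overlap those of Trmt112 over 19.1% of their length. The 6 NADPH supply genes had a median of 0.05, and the smallest p was that of Taldo1, transaldolase, at -0.28 (SE 0.12; edgeR adjusted p = 0.738).

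Of 7 haem and iron genes, 2 were above and 5 below 0, with a median of -0.16. Fth1, the heavy chain of the iron store ferritin, was at 265, 265 and 302 CPM in Cre clones 4, 7 and 21 and at 341, 299.5 and 376 CPM in Flp clones 4, 7 and 21, a log2 fold change of -0.29 (SE 0.10; edgeR adjusted p = 0.686). Blvrb, biliverdin reductase B, stood at -0.37 (SE 0.14; edgeR adjusted p = 0.711). Both had ratios below 0 in each clone, whereas Hmox1 had a fitted value above 0.

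Other detoxification targets had 4 of 10 tested genes above and 6 below 0, with a median of -0.04. Esd, S-formylglutathione hydrolase, was at 50.8, 101 and 87.4 CPM in Cre clones 4, 7 and 21 and at 46.0, 49.1 and 58.4 CPM in Flp clones 4, 7 and 21, a log2 fold change of 0.59 (SE 0.19; edgeR adjusted p = 0.645). Its log2 ratios of 0.14, 1.05 and 0.58 stood beside medians of 0.07, 0.87 and 0.75 for its 41 neighbours on chromosome 14. The 4 genes of superoxide dismutases and catalase had a median of 0.06, with Sod1 at -0.19 (SE 0.14; edgeR adjusted p = 0.898).

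The authors' deposited table, made from the same libraries, names no direction. It was read as Cre over Flp because 95.55% of its genes matched by symbol and tested here then had the sign found here. Read so, the 10 genes also had the sign found here, which adds no separate evidence. Its log2 fold changes ran from -0.09 for Gclm to 0.22 for Slc7a11 and Nqo1, and Gclc had its lowest adjusted p among the 10, at 0.831 by DESeq2, where 1.37% of genes with an adjusted p in the authors' deposited table were under 0.05. For Slc7a11 the authors' deposited table lists a log2 fold change of 0.22, smaller than the 0.58 fitted here. The first is from DESeq2 (SE 0.21) and the second from edgeR with the clone block (SE 0.55). DESeq2 run here gave 0.58 with the clone block and 0.42 without it, both above 0.22. The source of this difference was not tested. Pkd1 stood at -0.57 in the authors' deposited table, with an adjusted p of 0.0370 by DESeq2. Mean normalised counts in the authors' deposited table were 1.28 times those computed here for Keap1 and 0.771 times for Gclm, so the levels of these genes, both with exons that overlap other genes, depend on the source.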

How the data were processed

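The submitters' processing notes name featureCounts (1.6.0.3), STAR (2.5.2b-2), DESeq2 (2.11.40.1), FastQC (0.67) and Trim Galore (0.4.3.0), and the builds GRCm38 and mm10. For the annotation, the strand setting and the read layout, nothing is given in the sources used here. The deposited count files hold whole reads for each Ensembl gene, without normalization. Their deposited comparison table, per the file headers, holds for each gene a mean normalized count (a signal), the log2 fold change with its error, the Wald score, and the raw and adjusted p-value. The header names no direction. A positive value was read as higher in Cre, because the sign was that of the fit made here for 95.55% of the genes matched by symbol and tested here.

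Symbols, coordinates and exon lengths came from GENCODE release M21 (GRCm38), which held 49412 of the 49671 identifiers. Tests ran under R 4.3.3 in edgeR 4.0.16 (filterByExpr, TMM, quasi-likelihood test with clone as a block and 2 residual degrees of freedom), limma 3.58.1 and DESeq2 1.42.0, with Benjamini-Hochberg adjustment over all genes tested. Standard errors are the fitted change divided by the root of F. Clone ratios used a prior count of 2. The scripts were tested on simulated data.

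The block follows the series' design. Libraries of 1 clone departed together from their group means (r = 0.20, 0.11 and 0.30 for clones 4, 7 and 21), and libraries of different clones gave r of -0.27 to 0.02. The 10 genes and all lists were chosen with earlier results of these data known. Besides the 10 genes and Pkd1, the text names each list's gene with the smallest p, genes of at least 5 CPM with an unadjusted p under 0.05 and 1 direction in all clones, and genes passing in any fit. Trib3, Chac1, Atf4, Asns, Psat1, Ddit3, Ddit4 and Slc7a5 were named outside this rule, after their values were seen. Slc7a1 and Tkt were named for their neighbours. Sequences came from RefSeq (GRCm38.p6), and figures from matplotlib 3.10.9.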

Additional observations from a re-analysis of the deposited data

Results flagged for a closer look

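Slc7a11, Gsr and Srxn1 went in opposite directions between clones by a log2 ratio of at least 0.3 each way, and as each clone is 1 pair of cultures, these differences were not tested. Slc7a11 had its highest and lowest clone ratios 2.77 apart, between clone 7 and clone 21. Gsr had them 0.797 apart, between clone 7 and clone 4. Srxn1 had them 0.754 apart, between clone 7 and clone 21, and in clone 21 its neighbours on chromosome 2 had a median of -0.54.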

How the results depend on the processing

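The 13 alternatives were other tools, normalizations and filters, no clone block, library depth as a covariate, and leaving out each clone. None of them made a call for any of the 10 NRF2 response genes. The lowest adjusted p of the 10 was 0.0977, for Slc7a11 by edgeR with depth as a covariate. Its log2 fold change there was 1.37 against 0.58 in the reported fit, and 2 of the 10 had an unadjusted p under 0.05. That fit leaves 1 residual degree of freedom, and Flp was the deeper library only in clone 7. Of 130 fold changes recomputed for the 10 genes, 123 kept their sign. The sign of Keap1 (-0.019) and of Gsr (0.14) turned with depth as a covariate. With clones left out, Keap1 ran from -0.11 (without clone 21) to 0.11, Srxn1 from -0.14 (without clone 7) to 0.24, also turning without clone 4 (-0.04), Slc7a11 from -0.20 (without clone 7) to 1.18, and Gsr from -0.24 to 0.16 (without clone 4). For all of these the cause was not tested. None of 30 clone ratios turned with a prior count of 0.5.

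Over all genes 0 passed in the reported fit, 196 with DESeq2 and the clone block, 14 with DESeq2 without it, 224 in edgeR without a filter and 27 with depth as a covariate. Among other pathway genes these were 4 with DESeq2 and the clone block and 5 without a filter. Pkd1 passed with DESeq2 and the block (-0.69) and without a filter (-0.68). Without the replicate block, edgeR called 0 genes, and the fold changes of Nfe2l2 and Slc7a11 were 0.17 and 0.43. With a clone left out, 1 residual degree of freedom remains and the counts of 0 say nothing of stability. Pkd1 then ran from -0.81 to -0.47. Depth as a covariate also leaves 1 residual degree of freedom, so its counts carry the same limit. The 3 clone pairs limit what can be seen: the interval of Slc7a11 still allows a 3.81-fold higher and a 0.585-fold level in Cre.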
